A study of Mus musculus with 6 samples.

Results

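Chemokines are small secreted proteins that attract leukocytes, and their receptors are G protein-coupled receptors on the surface of the cells that respond. Ligands are named by the spacing of their first cysteines (CC, CXC, CX3C and XC). Homeostatic members position cells in healthy tissue, and inflammatory members are induced by cytokines and microbial signals. In bone marrow, stromal CXCL12 retains blood-forming cells and maturing neutrophils through CXCR4, while CXCR2 ligands draw neutrophils into the blood and CCR2 serves the exit of monocytes.

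The chemokines and chemokine receptors were taken by gene symbol, with ligands named Ccl, Cxcl, Cx3cl1 or Xcl1 and receptors named Ccr, Cxcr, Cx3cr1 or Xcr1. The rule found 64 genes of 55484 in the table, 46 ligands and 18 receptors, under 58 symbols. It leaves out the platelet chemokines Pf4 and Ppbp and the atypical receptors, which are described with the pathway. Of the 64 genes, 7 lie on unplaced scaffolds as further copies of Ccl19, Ccl21 and Ccl27a, and 13 were listed at 0 in both groups. A level of at least 1 FPKM (fragments per kilobase of transcript, scaled to library depth) in at least 1 group was reached by 31 members, and the authors tested 34.

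The 6 libraries hold RNA of the femur from wild-type C57BL/6 males, 3 sedentary (ND/SED) and 3 with free use of a running wheel (ND/WCR). Both groups were fed normal chow and housed singly for 6 weeks from 6 weeks of age, so the mice were 12 weeks old at the end. No transgene or drug is named, and how marrow was handled is not stated. The comparison asks which femoral transcripts differ after voluntary running.

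The files hold 1 pooled FPKM per group with an interval of the authors whose level is not stated, so no spread between mice can be given. Below, paired values are sedentary first and running second, a gene is called where the authors' deposited table gives q under 0.05, and log2 folds set running against sedentary mice, with 0.1 added to each FPKM. The steps between low FPKM values of single-exon genes gave about 14300000 to 16400000 effective fragments per sedentary library and 13800000 to 17300000 per running library. The half-width of the interval in sedentary mice had a median of 19.7% of the FPKM for the 10 members at 10 FPKM or more and 61.99% for the 19 members between 1 and 10 FPKM. Levels below 10 FPKM were therefore much less certain.

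Ccr2, the receptor for CCL2, CCL7 and CCL12 on inflammatory monocytes, was the member called, and it was lower in the running mice. Its level was 57.3 FPKM (interval 46.5 to 68.1) in sedentary and 42.2 FPKM (34.2 to 50.2) in running mice. This was a log2 fold of -0.44, or 0.736 of the sedentary level, and q in the authors' deposited table was 0.0133. The intervals of both groups overlapped, and the deposited test statistic was -2.29. The 1 call among 34 tested members was 2.94%, beside 0.941% of all tested genes in either direction and 0.497% on the lower side. No member was called higher in the authors' deposited table, in which 0.445% of all tested genes were, and none had an unadjusted p under 0.05 in that direction. With 1 call, the share in either direction rests on a single gene. In bulk bone RNA, fewer cells of a type and less RNA per cell cannot be told apart.

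At an unadjusted p under 0.05 in the authors' deposited table, 6 members were on the lower side, 17.6% of those tested, where 2.22% of all tested genes were on that side and 5.65% on either. On the higher side there were 0 members, where 3.42% of all tested genes were. The 6 were Ccr2, Ccl2, Ccl8, Ccl12, Cxcl9 and Cxcr2, all of the inflammatory class. The 5 other than Ccr2 had q of 0.300, 0.300, 0.777, 0.430 and 0.300 in the authors' deposited table, taken in that order, and so did not pass. No member had intervals apart, as 0.574% of all tested genes did, 0.4% on the lower side.

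**Figure D1:**
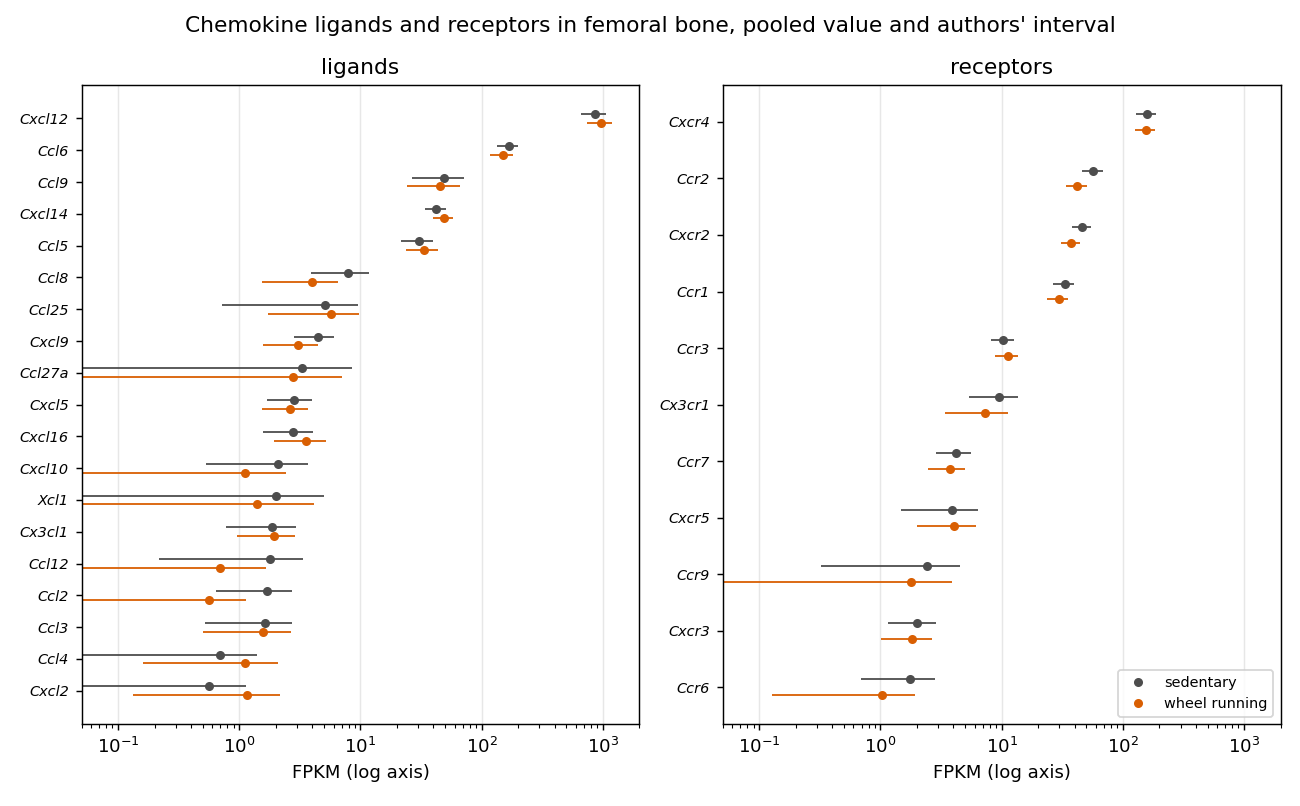
Pooled FPKM (points, log axis) with the authors' interval (lines, drawn to the left edge where the lower bound is 0) for the 19 ligands and 11 of the 12 receptors that were tested and reached 1 FPKM. Cxcl12 and Cxcr4 led the ligands and receptors, and the intervals of the groups overlapped for every member drawn.

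The promoters of the called receptor and of 4 ligands on either side of the comparison are shown as the 200 bases before the RefSeq start (GRCm38.p6, plus strand for Ccr2, Ccl8, Ccl12 and Cxcl2, minus strand for Cxcl10). The 4 ligands were picked by name. Cxcl10 and Cxcl2 had p of 0.0725 and 0.0813 in the authors' deposited table, while the windows of Cxcr2 and Cxcl9 are not printed. Capitals mark matches, on either strand, to the NF-kB consensus, to the AP-1 motif TGANTCA, to the PU.1 core GAGGAA and to the TATA motif TATAAA. The fifth motif searched, the interferon-stimulated response element (ISRE), had no match in these windows.
Ccr2, chr9:124101983-124102182: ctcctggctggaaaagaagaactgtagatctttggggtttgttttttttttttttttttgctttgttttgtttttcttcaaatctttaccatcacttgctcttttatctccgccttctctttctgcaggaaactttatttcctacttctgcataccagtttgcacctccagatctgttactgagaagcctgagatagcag
Ccl8, chr11:82114985-82115184: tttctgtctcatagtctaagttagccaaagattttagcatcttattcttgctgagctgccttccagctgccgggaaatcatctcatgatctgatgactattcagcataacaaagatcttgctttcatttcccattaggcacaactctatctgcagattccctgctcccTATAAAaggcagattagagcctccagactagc
Ccl12, chr11:82101645-82101844: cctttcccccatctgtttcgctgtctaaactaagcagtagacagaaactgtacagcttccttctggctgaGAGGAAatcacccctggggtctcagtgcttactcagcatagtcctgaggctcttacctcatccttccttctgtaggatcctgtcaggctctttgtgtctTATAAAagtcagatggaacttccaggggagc
Cxcl10, chr5:92348890-92349089: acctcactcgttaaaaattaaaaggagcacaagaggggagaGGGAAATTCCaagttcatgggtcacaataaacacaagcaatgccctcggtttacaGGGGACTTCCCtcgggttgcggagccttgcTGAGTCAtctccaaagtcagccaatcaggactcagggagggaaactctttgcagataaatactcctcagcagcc
Cxcl2, chr5:90903699-90903898: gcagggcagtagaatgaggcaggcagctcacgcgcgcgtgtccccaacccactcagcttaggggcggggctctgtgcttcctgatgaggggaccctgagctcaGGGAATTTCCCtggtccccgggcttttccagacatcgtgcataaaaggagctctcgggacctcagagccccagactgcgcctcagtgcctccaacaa

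Ccl8 and Ccl12, neighbours on chromosome 11, have a TATA match at a like place, starting 32 and 31 bases before the start. Cxcl10 has NF-kB matches starting 159, 104 and 103 bases before the start and an AP-1 match at 74, and the matches at 104 and 103 overlap in 1 stretch. Cxcl2 has overlapping NF-kB matches starting 97 and 96 bases before the start. The Ccr2 window holds none of the 5 motifs. It lies inside the annotated gene, which begins at 124101950, so bases before that start were not searched. The Cxcl2 window ends at 90903898 and its annotated gene begins at 90903871, so the last bases of that window lie inside the gene.

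A window was given for 42 of the 58 symbols, 49 windows in all. The NF-kB consensus was found in 10 of them, 20.4%, beside 6.07% of all 32851 windows of this length. The TATA motif was found in 24.5% of member windows and 9.96% of all, AP-1 in 12.2% and 5.48%, the PU.1 core in 24.5% and 19.03%, and the ISRE in 2.04% and 2.27%. The members with an NF-kB match were Ccl1, Ccl9, Ccl20, Ccr1, Ccr3, Ccr6, Cxcl1, Cxcl2, Cxcl3 and Cxcl10. Among them Ccl1, Ccl9, Ccr1, Ccr6, Cxcl3 and Cxcl10 had the lower level in running mice, Ccr3, Cxcl1 and Cxcl2 had the higher one, and Ccl20 was listed at 0. None of these 10 was called, and Ccl1 and Cxcl3 were near 0 and not tested. Of all tested genes 51.8% had the lower level, so no direction is read from these members. The windows of Ccr2, Ccl8, Ccl12, Cxcl9 and Cxcr2, which had an unadjusted p under 0.05 in the authors' deposited table, held no NF-kB match. Ccl2 had no window. Beside 6.07% of all windows, nothing is read from so few. A match describes letters only.

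Ccr2 (ENSMUSG00000049103, chromosome 9, 124101950 to 124113557, GRCm38) lies in a row of CC receptor genes. Of the 50-base words in Ccr2 transcripts, 1.91% also occur in another gene.

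The ligands of CCR2 were scarce in both groups. Ccl2, the main monocyte attractant, stood at 1.69 FPKM (0.638 to 2.74) and 0.560 FPKM (0.00 to 1.14), which makes the running level 0.332 of the sedentary one. Ccl12, its close mouse relative, stood at 1.78 FPKM (0.218 to 3.34) and 0.698 FPKM (0.00 to 1.67). Both had the lower pooled value in running mice, with intervals that overlapped. Ccl7, a further CCR2 ligand, stood at 0.317 and 0.106 FPKM and was not tested by the authors, and its level rests on about 8 and 3 fragments over the 3 libraries of a group. Ccl2, Ccl12 and their receptor were thus on the same side, but Ccr2 alone passed the test. With so few fragments, nothing can be read from the ratio of Ccl7.

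Ccl2, Ccl7, Ccl11, Ccl12, Ccl8 and Ccl1 lie side by side on chromosome 11. Ccl8, which in the mouse attracts cells through CCR8, had the highest level of them, 7.82 FPKM (3.91 to 11.7) and 4.01 FPKM (1.55 to 6.48), or about 92 and 50 fragments. Its p was 0.00575 in the authors' deposited table and its log2 fold -0.94. Ccl11, the eosinophil attractant eotaxin, lay between them in the row and stood at 0.458 FPKM (0.0462 to 0.869) and 0.735 FPKM (0.173 to 1.30), so it did not share their side. Ccl1, another CCR8 ligand, was listed at 0.0877 and 0 FPKM and not tested. The summed level of these 6 genes was 12.1 and 6.11 FPKM, a ratio of 0.503. The cluster was set apart after its values were seen and has no test of its own.

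**Figure D2:**
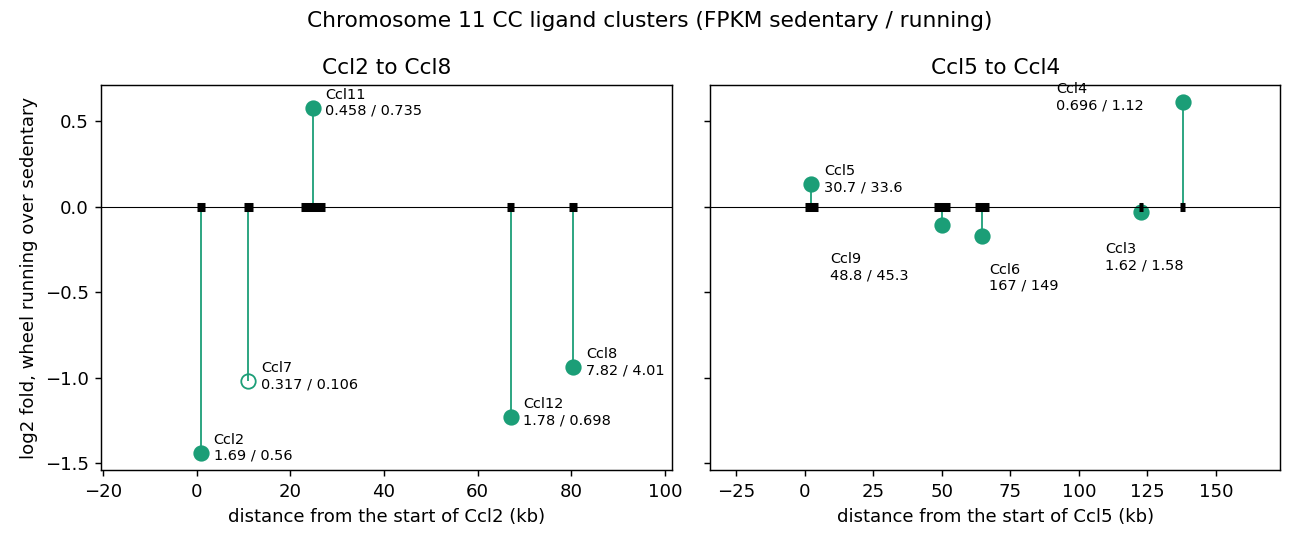
Log2 fold (running over sedentary) of CC ligands against distance in kb from the first gene of each chromosome 11 cluster. Black bars are the gene bodies, the open point marks Ccl7, which was not tested, Ccl1 is not drawn, and the labels give FPKM in sedentary and running mice. Ccl2, Ccl7, Ccl12 and Ccl8 lie below 0 and Ccl11 above it, while the genes from Ccl5 to Ccl4 lie near 0 except Ccl4.

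The further chromosome 11 cluster, from Ccl5 to Ccl4, held the most abundant CC ligands and no call. Ccl6, a ligand of CCR1 made by myeloid cells, stood at 167 FPKM (133 to 200.3) and 149 FPKM (117 to 180.4). Ccl9, likewise a CCR1 ligand, stood at 48.8 FPKM (26.5 to 71.1) and 45.3 FPKM (24.1 to 66.6). Ccl5, made by T and NK cells and platelets, stood at 30.7 FPKM (21.5 to 39.96) and 33.6 FPKM (23.9 to 43.4). In each of these 3 genes the groups differed by far less than the width of the intervals. Ccl3, a ligand of CCR1 made by macrophages, stood at 1.62 FPKM (0.520 to 2.71) and 1.58 FPKM (0.505 to 2.65). Ccl4, a close relative of it, stood at 0.696 FPKM (0.00 to 1.40) and 1.12 FPKM (0.161 to 2.07). The summed level of the 5 genes was 249 and 230.3 FPKM, a ratio of 0.927, beside 0.503 for the Ccl2 to Ccl1 cluster. Ccr1, the receptor that binds several of these ligands, stood at 33.04 FPKM (26.8 to 39.3) and 29.5 FPKM (23.9 to 35.2), and was not called.

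CXCL12 and its receptor dominated the homeostatic members. Cxcl12 (chromosome 6, 117168535 to 117181367) stood at 860.3 FPKM (662 to 1059) and 973 FPKM (745 to 1200.0), ranks 89 and 68 among all genes. It made up 72.3% of the summed ligand FPKM in sedentary and 75.8% in running mice. The log2 fold was 0.18, and p was 0.192 in the authors' deposited table. Cxcr4 stood at 159 FPKM (129 to 189) and 156 FPKM (126 to 185), and made up 47.6% and 51.9% of the summed receptor FPKM. Its log2 fold of -0.03 changed sign, to 0.01, when both groups were scaled to the same total FPKM.

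Cxcl14, a homeostatic CXC ligand, had the smallest p of the members on the higher side, at 42.3 FPKM (34.2 to 50.5) and 49.1 FPKM (39.8 to 58.5). The authors' deposited table gives it p of 0.0552 and q of 0.920. Its promoter holds the 1 ISRE match among the member windows. Ccl25, the ligand of CCR9 that guides thymocyte and gut lymphocyte traffic, stood at 5.09 FPKM (0.720 to 9.46) and 5.69 FPKM (1.72 to 9.66), and its exons overlap those of Elavl1 on the opposite strand. Ccl27a, a skin ligand of CCR10, stood at 3.32 FPKM (0.00 to 8.47) and 2.79 FPKM (0.00 to 7.11). Its exons overlap those of Il11ra1, and 45.0% of its 50-base words occur in other genes, so its level is uncertain.

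The other homeostatic receptors, which guide lymphocytes, stood low. Ccr7, which brings T cells and dendritic cells to lymph nodes, stood at 4.24 FPKM (2.89 to 5.59) and 3.73 FPKM (2.48 to 4.98). Cxcr5, the follicle receptor of B cells, stood at 3.91 FPKM (1.49 to 6.33) and 4.07 FPKM (2.01 to 6.13). Its exons overlap those of Bcl9l. Ccr9 stood at 2.41 FPKM (0.322 to 4.51) and 1.78 FPKM (0.00 to 3.89), and 20.1% of its words are shared, mostly with genes that overlap its exons. None was called, and each pair of intervals overlapped. The CCR7 ligands were at the floor: Ccl19 was listed at 0.0411 and 0.0392 FPKM, and every Ccl21 copy at 0.128 FPKM or less. The Ccl21 copies are near-identical, with 71.6% of words shared for Ccl21a, 97.1% for Ccl21d and every word for Ccl21b on chromosome 4. Of the words of Ccl19 on chromosome 4, 51.97% occur in other genes. Fragments of Ccl19 and Ccl21 could thus be lost or traded among genes that share words. Cxcl13, the CXCR5 ligand, stood at 0.488 and 0.377 FPKM and was not tested.

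The neutrophil receptor Cxcr2 was abundant and its ligands within the rule were not. Ppbp, the platelet precursor of a CXCR2 ligand outside the rule, stood at 816 and 731 FPKM. Cxcr2 stood at 46.3 FPKM (37.8 to 54.9) and 37.7 FPKM (30.7 to 44.7), a log2 fold of -0.30 with p of 0.00580 in the authors' deposited table. Cxcr1, the related receptor beside it on chromosome 1, stood at 0.486 and 0.283 FPKM and was not tested. Of the CXCR2 ligands within the rule, Cxcl5 stood at 2.82 FPKM (1.70 to 3.95) and 2.61 FPKM (1.55 to 3.66). Cxcl2 stood at 0.566 FPKM (0.00 to 1.14) and 1.15 FPKM (0.132 to 2.16), and Cxcl1 at 0.232 FPKM (0.00 to 0.574) and 0.654 FPKM (0.106 to 1.20). These last had the higher pooled value in running mice, with log2 folds of 0.90 and 1.18, and neither was called. Cxcl3 was listed at 0.0606 and 0.0569 FPKM, and 5.84% of Cxcl2 words are shared, with Cxcl3. In the same libraries the summed level of 12 neutrophil markers was 54796 and 46709 FPKM, a ratio of 0.852, with all 12 markers on the lower side and none called. Most of these sums was S100a8, at 20105 and 16793 FPKM, and S100a9, at 20406 and 17114 FPKM. The median log2 fold of the 12 was -0.17, beside -0.30 for Cxcr2. The ratio for Cxcr2 was 0.814. The part of neutrophil content in it was not tested.

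The interferon-induced CXCR3 ligands stood low in both groups. Cxcl9 stood at 4.44 FPKM (2.81 to 6.07) and 3.04 FPKM (1.58 to 4.50), with p of 0.0107 in the authors' deposited table. Cxcl10 stood at 2.10 FPKM (0.528 to 3.68) and 1.12 FPKM (0.00 to 2.43), and its exons overlap those of Art3 on the opposite strand. Cxcl11, whose exons overlap those of Gm2673, was listed at 0.0477 and 0.0412 FPKM and not tested. Of the 50-base words of Cxcl11, 40.4% occur in other genes. Their receptor Cxcr3, found on activated T and NK cells, stood at 2.01 FPKM (1.15 to 2.88) and 1.84 FPKM (1.02 to 2.66), or about 134 and 131 fragments. Ligand and receptor intervals overlapped between groups throughout.

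Among receptors of other leukocytes, Ccr3, which marks eosinophils, stood at 10.3 FPKM (8.12 to 12.6) and 11.2 FPKM (8.85 to 13.6). Cx3cr1, of monocytes and macrophages and with exons that overlap Gm33858, stood at 9.51 FPKM (5.39 to 13.6) and 7.34 FPKM (3.40 to 11.3). Its ligand Cx3cl1, which is held on cell membranes, stood at 1.85 FPKM (0.782 to 2.92) and 1.92 FPKM (0.956 to 2.89). Ccr6, the receptor of CCL20 on B cells and some T cells, stood at 1.76 FPKM (0.689 to 2.83) and 1.03 FPKM (0.128 to 1.94), while Ccl20 was listed at 0 in both groups. None of these was called. Cxcl16, whose exons overlap those of Zmynd15, stood at 2.80 FPKM (1.56 to 4.04) and 3.54 FPKM (1.92 to 5.15), and its receptor Cxcr6 at 0.870 and 0.640 FPKM. Xcl1, which attracts cross-presenting dendritic cells, stood at 2.02 FPKM (0.00 to 4.98) and 1.40 FPKM (0.00 to 4.12), with exons that overlap Gm20743, and its receptor Xcr1 was listed at 0.0325 and 0.0575 FPKM.

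The authors left 30 members untested. Of these, 17 were above 0 in at least 1 group, with larger values between 0.038 and 0.567 FPKM. In running mice 13 of the 17 had the lower value and 4 the higher. These levels are near the floor and no share over all untested genes was taken, so nothing can be read from that count. The 17 include Ccl24, a CCR3 ligand, at 0.567 and 0.159 FPKM, the CCR4 ligands Ccl17 at 0.442 and 0.0742 FPKM and Ccl22 at 0.332 and 0.206 FPKM, and the receptor Ccr8 at 0.163 and 0.0263 FPKM. Ccl17 and Ccr8 rest on about 5 and 7 fragments in sedentary mice and 1 each in running mice, so nothing can be read from their ratio. Listed at 0 in both groups were Ccl20, Ccl26, Cxcl15, Cxcl17, Ccl21c, Ccl21d, Ccl27b and chromosome or scaffold copies of Ccl19, Ccl21a, Ccl21b and Ccl27a.

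Of 21 tested ligands, 11 had the lower value in running mice, and of 13 tested receptors 10 did, beside 51.8% of all tested genes. The median log2 fold was -0.11 over the 19 ligands and -0.17 over the 12 receptors at 1 FPKM or more, and -0.01 over all 14488 tested genes at that level, of which 52.1% were lower. Ligands ran from -1.44 to 0.90, and the lowest receptor, Ccr6, stood at -0.71. The summed FPKM was 1191 and 1283 for ligands, a ratio of 1.08, and 334 and 299.9 for receptors, a ratio of 0.899. Cxcl12 made up most of the ligand sum, and the CC ligands alone summed to 271 and 246 FPKM. At 5 FPKM or more the median was 0.13 over ligands, of the opposite sign, and -0.23 over receptors. The difference between ligands and receptors was not tested.

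**Figure D3:**
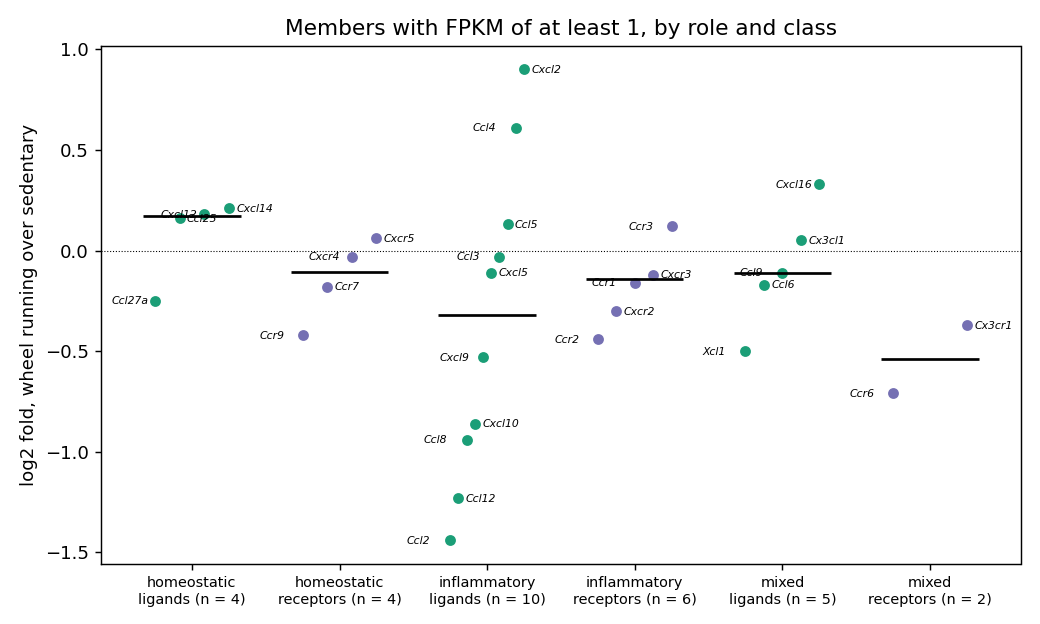
Log2 fold (running over sedentary) of the members with at least 1 FPKM, split by role (ligands green, receptors purple) and class, with the median of each whole set as a bar and 1 receptor left undrawn. The inflammatory ligands run from Ccl2 at -1.44 to Cxcl2 at 0.90, and the homeostatic ligands other than Ccl27a lie above 0.

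The homeostatic class had 8 tested members, of which 4 had the lower value in running mice, and the inflammatory class 18, of which 11 did. Members that serve both purposes, or were placed in neither class, had 6 of 8 on the lower side. Of all tested genes 51.8% were on that side. The classes were set with earlier results of these data known. The median log2 fold was 0.01 for homeostatic and -0.14 for inflammatory members at 1 FPKM or more. By role, it was 0.17 for 4 homeostatic ligands and -0.11 for 4 homeostatic receptors, and -0.32 for 10 inflammatory ligands and -0.14 for 6 inflammatory receptors. The 6 members with an unadjusted p under 0.05 in the authors' deposited table were 4 inflammatory ligands and 2 inflammatory receptors, and 0 were homeostatic. They made up 33.3% of the tested inflammatory members, beside 2.22% of all tested genes on the lower side. With 8 tested homeostatic members, 0 is near that share of all genes and tells nothing of the class. Counting the mixed members as homeostatic turned that median to -0.11. The summed level was 1081 and 1197 FPKM for homeostatic, 207 and 176 FPKM for inflammatory members. No test of the difference between classes was made.

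**Figure D4:**
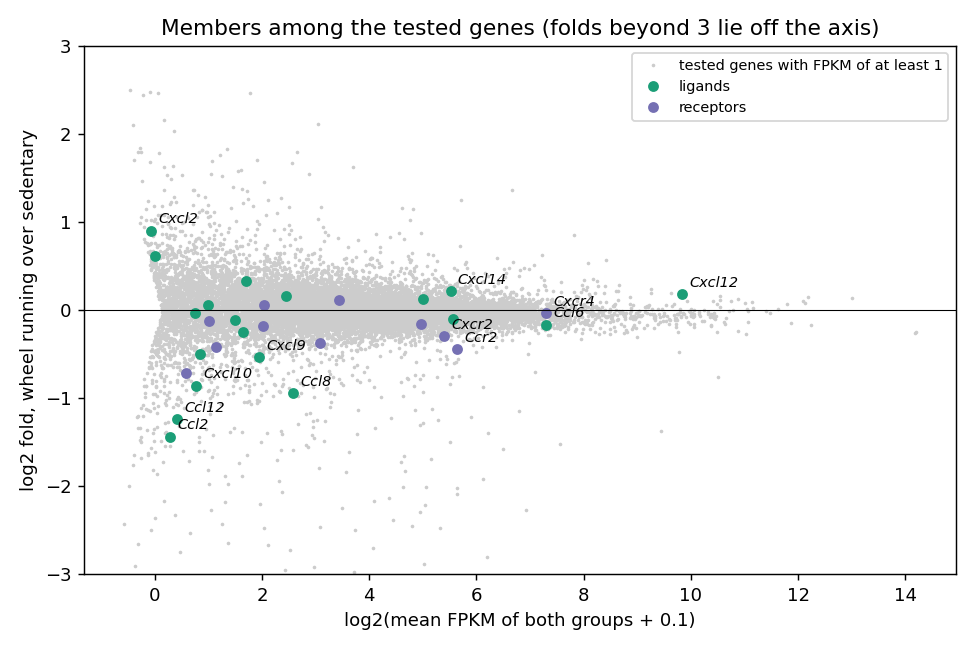
Log2 fold (running over sedentary) against log2 mean FPKM for the tested genes with at least 1 FPKM (grey) and the members among them but 1 (green ligands, purple receptors). Ccr2, the member called, lies at -0.44, and the members with the widest folds, Ccl2 and Ccl12, lie at low FPKM.

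Of 70 listed genes of the pathway outside the rule, 69 were matched and 66 tested, and 1 was called, Il1b. That is 1.52%, beside 0.941% of all tested genes. Of the 66, 48 (72.7%) had the lower value in running mice, beside 51.8% of all tested genes. Il1b, a cytokine that induces many inflammatory chemokines, fell from 15.8 FPKM (11.1 to 20.6) to 9.48 FPKM (6.58 to 12.4), with q of 0.00718 in the authors' deposited table. Of the 14 tested upstream cytokine and NF-kB genes it was the 1 call, and the median log2 fold was -0.10. Among the most abundant uncalled genes of that list were Nfkbia, the NF-kB inhibitor, at 66.1 and 71.5 FPKM, and the subunit gene Nfkb1 at 42.9 and 42.0 FPKM.

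Of the 12 tested atypical receptors and chemokines outside the rule, 0 were called, and 0 had an unadjusted p under 0.05 in the authors' deposited table. Ppbp, the platelet precursor of a CXCR2 ligand, stood at 816 FPKM (661 to 971) and 731 FPKM (594 to 868), near the level of Cxcl12, and Pf4, also of platelets, at 540.4 and 517 FPKM. Cmtm7, of the chemokine-like factor family, stood at 121 and 115 FPKM. Ackr3, which scavenges CXCL12 and was named after its values were seen, stood at 8.91 and 10.6 FPKM. Of the 13 genes of ligand processing and presentation, 0 were called, with a median log2 fold of -0.04. The proteases Elane, Ctsk and Mmp9 led that list, at 715 and 650.0 FPKM, 580.3 and 593 FPKM, and 439 and 427 FPKM. Of the 27 genes of receptor signalling, 0 were called and 23 (85.2%) had the lower value, beside 51.8% of all tested genes, with a median of -0.12. An unadjusted p under 0.05 in the authors' deposited table was held by 2 of them, 7.41% beside 2.22% of all tested genes on the lower side. They were Fgr, a kinase of myeloid cells, at 37.1 and 28.8 FPKM (q 0.106 in the authors' deposited table), and Dock2, which drives leukocyte movement, at 30.04 and 25.7 FPKM (q 0.857), both named after their values were seen. Gnai2, the G protein subunit through which these receptors signal, stood at 288 and 282 FPKM, and the small GTPases of cell movement Cdc42 and Rac1 at 224 and 207 FPKM and at 211 and 209.6 FPKM.

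Markers of the cells that carry the members lay on both sides. Of 12 monocyte and macrophage markers, 5 had the lower value, with summed levels of 3405 and 2984 FPKM, a median log2 fold of 0.07 and a ratio of the sums of 0.876, beside 0.736 for Ccr2. Ly6c2, which marks the monocytes that carry CCR2 and was picked after its values were seen, stood at 536 and 466 FPKM and was not called. Cd163, of resident macrophages, was called higher, at 20.01 and 28.0 FPKM. None of the 12 was at 0, and Lyz2 alone held 2293 and 1904 FPKM of their sums. Dendritic cell markers summed to 103 and 92.8 FPKM. The part of cell content in the level of Ccr2 was not tested.

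Cxcl12 is made chiefly by CXCL12-abundant reticular (CAR) stromal cells, and all 8 of their markers had the higher value in running mice. Their sum was 295 and 373 FPKM, a ratio of 1.27, with Lepr (27.9 and 39.7 FPKM) and Adipoq (40.2 and 55.8 FPKM) called. The median log2 fold of the 8 was 0.24. The ratio for Cxcl12 was 1.13, a log2 fold of 0.18. Adipoq is also in the adipocyte list, whose sum was 340 and 494 FPKM, and osteoblast and osteocyte markers summed to 5576 and 5882 FPKM. Their part in the level of Cxcl12 was not tested. The marker lists of T and NK cells summed to 89.01 and 82.8 FPKM, of B lineage cells to 432 and 389 FPKM, of megakaryocytes to 1658 and 1527 FPKM, and of endothelium to 164 and 169 FPKM. Eosinophil, basophil and mast cell markers summed to 1099 and 1161 FPKM, of which the eosinophil gene Prg2 held 937 and 1009 FPKM, while the basophil protease Mcpt8 fell from 50.95 to 35.5 FPKM. Plasma cell markers summed to 328 and 240.4 FPKM, and Jchain, which joins antibody chains, fell from 169 to 104 FPKM. The other calls were higher in running mice, namely Mepe and Sost of osteocytes, Fabp4 and Cfd of adipocytes, and Myh1, Myh2 and Tcap of muscle. In all, 12 marker genes were called, 2 lower and 10 higher, 10.1% of 119 tested beside 0.941% of all tested genes. Skeletal muscle markers summed to 1611 and 1947 FPKM, and erythroid markers to 8654 and 9165 FPKM. The erythroid sum leaves out the globin genes Hba-a1 and Hbb-bs, which carry the status HIDATA and were not tested. Hba-a1 was listed at 11662 and 0 FPKM, and Hbb-bs at 0 in both groups.

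**Figure D5:**
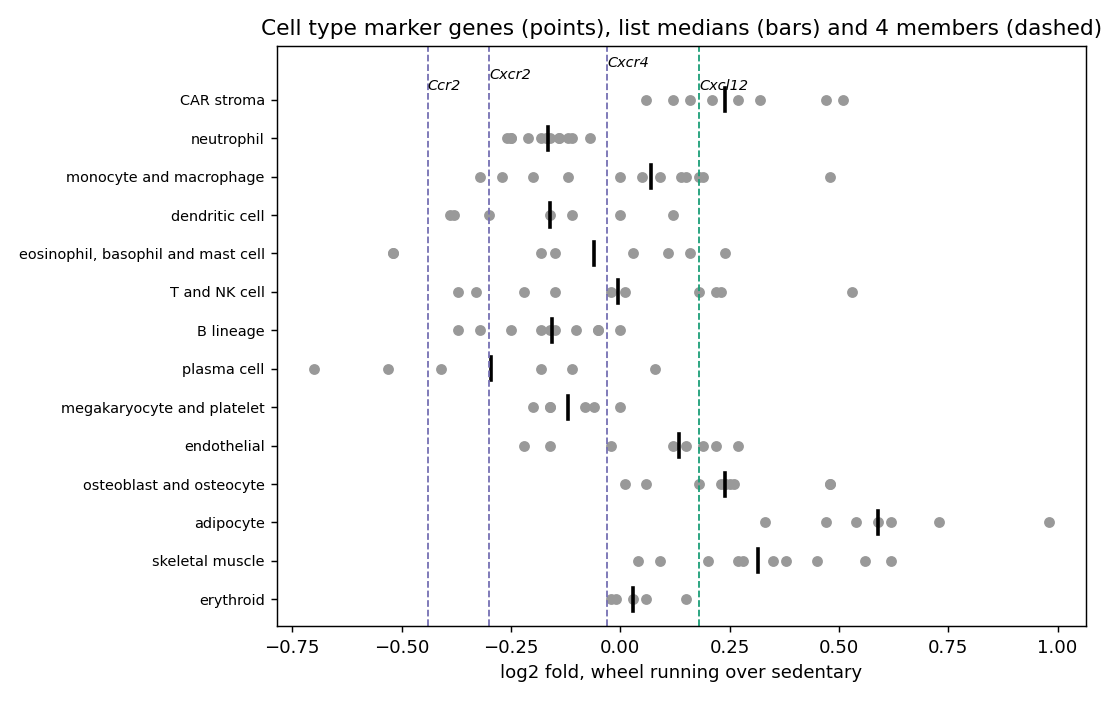
Log2 fold (running over sedentary) of cell type marker genes at 1 FPKM or more (points) with the median of each list (bars), and of Ccr2, Cxcr2, Cxcr4 and Cxcl12 (dashed lines). All neutrophil points lie below 0 and all CAR stroma points above it, and Ccr2 at -0.44 lies beyond every monocyte and macrophage marker on the lower side.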

How the data were processed

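Libraries were made from polyadenylated RNA and keep strand, according to the protocols in the labels. Cufflinks 2.2.1, HISAT2 2.2.1, Trimmomatic 0.39, SAMtools 1.10 and the build GRCm38 appear, without roles, in the processing notes of the submitters. The authors gave each group 1 FPKM per gene, with the bounds of an interval, and a log2 fold, a test score, a p-value and a q-value per gene, in tables laid out as by Cuffdiff, per the file headers. Of 55484 genes, 15508 were tested. As 0 columns hold a single library, no test of spread between mice could be run, and the authors' q under 0.05 is the call. Adjusting the authors' p over tested genes (Benjamini-Hochberg) gave the deposited q within 5.21e-07. Each group held 3 mice, according to the design text.

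Log2 folds use log2(FPKM + 0.1), which understates the change of low genes. Members, classes and lists were chosen with earlier results of these data known. Named are members called or at 1 FPKM or more, their partners, those at 0, called list genes and the 3 most abundant uncalled genes per pathway list. The values of 1 member and 1 pathway gene are not reported here, though counts and medians include them. Other untested members, and marker genes that held much of a marker sum, were named after their values were seen. Coordinates, exon overlaps and 50-base words are from GENCODE vM21 (GRCm38). Fragment numbers were estimated for members with 1 transcript, shortened by 250 bp. No source used here says if strand was used in counting. The adjustment was tested on simulated data. Python 3.11.15, pandas 2.3.3 and matplotlib 3.10.9 were used.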

Additional observations from a re-analysis of the deposited data

How the results depend on the processing

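No paired analysis was possible because each group has just 1 pooled FPKM, without replicate numbers. Leaving out libraries and fits on single libraries were not run for the same reason. Of 124 log2 folds of the 31 members at 1 FPKM or more under other pseudocounts and scalings, 122 kept their sign. A pseudocount cannot change the sign of a fold, so that part of the count was fixed beforehand. Scaling to the same total shifted folds by 0.04 and turned Ccl3 and Cxcr4 to 0.01 each. Scaling to the same median shifted folds by 0.01. The count of 122 thus says little about how firm the directions are. The 1 called member, Ccr2, was lost with q under 0.01 (0 called) or intervals apart (0 called), while 6 members had an unadjusted p under 0.05. It was kept with q recomputed over genes at 1 FPKM or more (0.0124). The call also stayed with a limit on the size of the authors' test score and without the 9 members whose exons overlap another gene. These last 2 settings were chosen after seeing the data and say nothing of how firm the call is. Ccr2 has no such overlap, and its score was known when the limit was set. The ligand median turned to 0.13 over members at 5 FPKM or more, and the homeostatic median to -0.11 with mixed members added, the first with fewer ligands counted and the second with more members. A single mouse behind a value could not be detected, and below 10 FPKM the intervals limit every statement.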
